A study of Mus musculus with 12 samples.

Results

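The comparison set kidneys of PAD4 knockout mice against kidneys of wild-type mice, 24 h after both had received an iodinated contrast agent that injures the kidney. It used 6 of the 12 bulk RNA-seq libraries of the series, 3 per group, each from a separate mouse, and 13986 of the 32199 genes in their table, those with a mean of at least 0.5 FPKM over the 6 libraries. FPKM is a level corrected for transcript length and for the fragments mapped in a library. Both groups were male and aged 8 weeks. The wild type was C57BL/6, and the labels call the other group Padi4 knockout or Pad4 knockout without saying how the allele was made or whether all cells carry it. Mice of both groups had lost a kidney by surgery, recovered for 3 weeks, went without water for 24 h and were given furosemide, a loop diuretic, 20 min before iodixanol entered the tail vein. No kidney without contrast injury was analysed here, so the values say how injured kidneys of the 2 genotypes differed and not how either responded to the contrast agent. The other 6 libraries, IL-33 knockout and wild type under the same injury, formed a second set with its own table.

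PAD4, encoded by Padi4, is an enzyme of neutrophils that turns arginine of histones into citrulline and so loosens chromatin. Neutrophils then can cast out DNA studded with granule proteins, a structure called an extracellular trap. IL-33 is an alarmin, a nuclear cytokine set free by damaged cells, which signals through the receptor ST2, encoded by Il1rl1. Ferroptosis is a form of cell death driven by iron and by the oxidation of membrane lipids, and the proximal tubule, the segment that takes back most of the filtrate and depends on mitochondria for it, is prone to it. The series asked how these processes bear on tubular injury after contrast.

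Library sums lay between 700601 and 812981 FPKM, the mitochondrial genome took 52.0% to 60.0% of them, and 10205 to 11983 genes reached 1 FPKM. Sequencing depth is unknown from FPKM. On the first principal component, with 64.3% of the variance, the wild-type libraries lay together, between -38.7 and -34.6, while knockout library 2, at 7.43, lay between them and knockout libraries 1 and 3, at 62.0 and 38.6. Pearson's r over genes of knockout library 2 was 0.930 to 0.940 with the wild-type libraries, against 0.850 to 0.854 for knockout library 1. RNA of other organs was in these libraries. The median of 25 markers of colon and intestine was 22.4, 35.1, 36.9 FPKM in wild type against 3.09, 19.6, 8.39 FPKM in the knockout, and that of 15 lung markers was 4.00, 10.8 and 6.30 FPKM and 0.790, 4.23 and 0.753 FPKM. Kidney does not make most of these transcripts, and in the second set the medians were at most 0.0362 and 0.0186 FPKM. Of the 25 colon markers 1 was at 0 in knockout library 1, and of the 15 lung markers 1 was at 0 in knockout library 3. The colon and lung levels were thus lowest in knockout libraries 1 and 3. Knockout library 2 was below all wild-type libraries for the colon median and within the wild-type range for the lung median. For the colon markers this was also the order of the knockout libraries on the first principal component. Kap, the kidney androgen-regulated protein of the proximal tubule, was at 5061, 4743, 7975 FPKM in wild type, against 24447, 9626, 15313 FPKM in the knockout. Kidney RNA was thus present in every library, but Kap was chosen after its values were seen. Its level does not show how much of a library came from kidney.

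In limma, 1243 genes were higher in the knockout (8.89% of genes tested) and 1230 were lower (8.79%), 17.7% in all, and the test with a change of 2-fold or more was passed by 9.02%. Changes are given on the log2(FPKM + 1) scale, knockout minus wild type, and the median over all genes was 0.016. For 33.0% of all genes the 3 wild-type values did not overlap the 3 knockout values, and this held for 1150 of the 1243 genes that rose and 1125 of the 1230 that fell. An exact permutation test of 3 against 3 cannot go below p = 0.1, so single genes rest on limma, which pools the spread over genes: its prior had 15.0 degrees of freedom beside the 4 of each gene. On each gene's own spread alone, an alternative chosen after seeing the data, 0 genes were higher and 1 lower after adjustment, while 1876 of the 2473 genes called were at an unadjusted p under 0.05. With the mean log2 level of the colon and lung markers as a covariate, 59 genes were higher and 14 lower, and 32 of the 2473 genes called passed in the same direction. The change kept its direction for 1959 of the 2473, its median size went from 1.01 to 0.41, and the median SE of all genes rose from 0.24 to 0.55. Of 39 lists with a member that rose, 6 had one higher in that fit, and of 44 with a member that fell, 2 had one lower. Without wild-type library 1, 352 genes were higher, without wild-type library 3, 515 were lower, and 333 of the genes that rose and 378 of those that fell passed in all 6 fits that left out a library. In the fits without wild-type library 2, knockout library 1 or knockout library 2 limma's prior was infinite, and p-values can be too small. The counts given below for these fits carry that limit. The lists below are read against these shares of all genes, and the counts of the fit with this covariate are given beside the main groups. In bulk tissue, fewer cells of a type and less RNA per cell cannot be told apart.

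**Figure D1:**
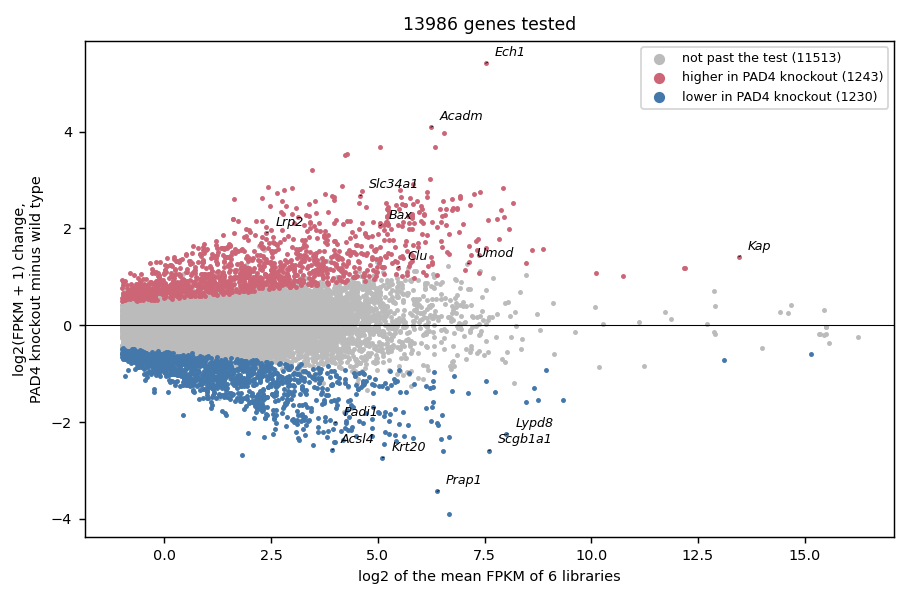
Change of each of the 13986 genes in log2(FPKM + 1), PAD4 knockout minus wild type, against the log2 of its mean FPKM over the 6 libraries. Genes past the test are coloured, 1243 higher and 1230 lower, and both kinds are found at low and at high levels, with Ech1 (5.41) and Acadm (4.09) at the top and Prap1 (-3.43) near the bottom.

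The targeted gene, Padi4, was at 0.704, 1.06, 1.67 FPKM in wild type, against 0.217, 0.497, 0.187 FPKM in the knockout. The groups did not overlap, and transcript was left in every knockout library, most in library 2. The change was -0.71 ± 0.19 (SE), adjusted p = 0.0147, and the call ended for Padi4 without wild-type library 3 (adjusted p = 0.0797) or knockout library 3 (0.0548). Transcript counts per gene do not show whether the exons removed by the allele are among those read. Other peptidylarginine deiminases fell as well. Padi1 was at 19.5, 14.8, 41.7 FPKM in wild type, against 2.32, 13.6, 3.32 FPKM in the knockout and Padi2 at 6.38, 5.22, 10.9 FPKM in wild type, against 0.7198, 4.02, 1.13 FPKM in the knockout. In both, the knockout libraries 1 and 3 were far below wild type while library 2 was just under the lowest wild-type value. The changes were -2.02 and -1.63, and leaving out a library ended the calls of Padi1 without wild-type libraries 1 and 3 (adjusted p = 0.0721 and 0.0684) and Padi2 without wild-type library 1 (0.0537). Padi3 and Padi6 were below the level tested. Il33 was at 3.57, 5.29, 3.28 FPKM in wild type, against 0.889, 1.58, 1.28 FPKM in the knockout, lower in each knockout library than in each wild-type library (-1.15 ± 0.23 (SE), adjusted p = 0.00208). Its receptor gene Il1rl1 was below the level tested, at no more than 0.0609 FPKM in any library. Of the 7 tested genes of the PAD enzymes and the IL-33 pathway, the adaptors Myd88, Irak4 and Traf6 did not pass, and 4 were lower. With the colon and lung covariate 0 of the 7 were lower, and the median went from -0.71 to 0.03. In the second set no library exceeded 0.0220 FPKM for Padi4, 0.0877 for Padi1 or 0.423 for Padi2. Il33 was at 1.71, 1.13, 3.64 FPKM in the wild type there. The part of other organs' RNA in these falls was not tested.

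**Figure D2:**
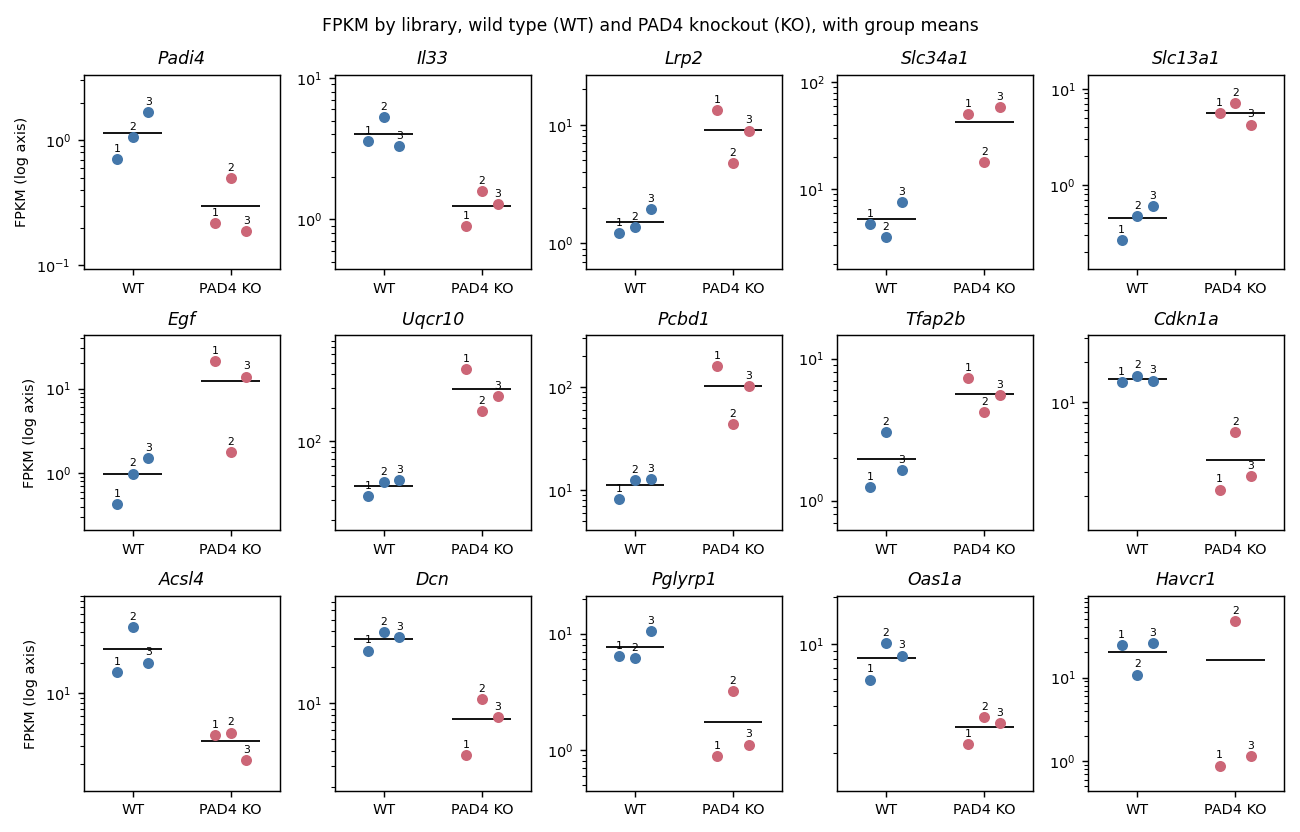
FPKM of 15 genes in each library on log axes, wild type in blue and PAD4 knockout in red, with the library number above each point and a line at the group mean. In most panels the groups are apart and knockout library 2 lies nearest to wild type, while Slc13a1 is highest in that library and Havcr1 is high there and low in knockout libraries 1 and 3.

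Genes of proximal tubule transport were higher in the knockout. Of the list for glucose, phosphate and acid transport, 8 of 16 tested members rose and 2 fell (median 1.14). Slc34a1, the main sodium-phosphate cotransporter of the brush border, was at 4.73, 3.61, 7.56 FPKM in wild type, against 50.5, 18.1, 58.96 FPKM in the knockout (2.68 ± 0.38 (SE), adjusted p = 0.000178). Knockout libraries 1 and 3 stood about level, and library 2 lay between them and wild type. Slc13a1, the sodium-sulfate cotransporter, was at 0.264, 0.474, 0.602 FPKM in wild type, against 5.62, 7.08, 4.24 FPKM in the knockout, and Slc13a3, a dicarboxylate carrier of the basolateral side, at 1.66, 2.37, 2.28 FPKM in wild type, against 15.4, 7.95, 10.7 FPKM in the knockout. For Slc13a1 library 2 was the highest of all. Slc2a2, the glucose exit carrier GLUT2, had the same order, at 0.169, 0.507, 0.397 FPKM in wild type, against 2.62, 8.38, 1.71 FPKM in the knockout. The members that fell were Car4, a carbonic anhydrase of the luminal membrane, at 32.6, 40.1, 57.5 FPKM in wild type, against 12.8, 18.3, 15.2 FPKM in the knockout, and Slc9a3, the sodium-proton exchanger NHE3, at 24.99, 32.8, 25.1 FPKM in wild type, against 18.05, 7.52, 9.53 FPKM in the knockout. Every knockout library was below every wild-type library for both. Of the 10 genes of megalin-cubilin endocytosis, by which the proximal tubule takes up filtered protein, 3 rose and 0 fell. These were the receptor genes Lrp2 (megalin) and Cubn and Amn, which anchors cubilin. Lrp2 was at 1.21, 1.37, 1.94 FPKM in wild type, against 13.3, 4.75, 8.91 FPKM in the knockout, Cubn at 0.526, 0.641, 0.841 FPKM in wild type, against 5.38, 1.91, 3.52 FPKM in the knockout and Amn at 12.2, 10.7, 15.4 FPKM in wild type, against 48.8, 29.4, 34.5 FPKM in the knockout, with changes of 1.91, 1.40 and 1.47. Leaving out a library ended the calls of Slc2a2 without wild-type library 1 (adjusted p = 0.056) and Slc9a3 without wild-type libraries 1 and 3 (0.0669 and 0.0512), and the count of transport genes that rose ran from 4 (without wild-type library 1) to 9 (without wild-type library 2 or knockout library 2). With the colon and lung covariate, 4 of the 16 were higher and 0 lower (median 0.12), and 0 of the endocytosis genes passed (median 0.44).

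Of the organic anion and cation carriers, which move drugs and waste from blood to urine, 17 of 22 rose and 1 fell (median 1.36). Slc22a6 and Slc22a8, the uptake carriers OAT1 and OAT3, were at 7.67, 17.1, 14.6 FPKM in wild type, against 87.7, 46.1, 47.9 FPKM in the knockout and at 2.13, 1.51, 2.45 FPKM in wild type, against 11.5, 8.18, 9.496 FPKM in the knockout. Slc22a30 was at 0.731, 0.881, 1.43 FPKM in wild type, against 17.9, 4.46, 14.99 FPKM in the knockout, and the luminal export pump Abcc2 (MRP2) at 2.74, 4.07, 5.07 FPKM in wild type, against 34.4, 22.5, 17.1 FPKM in the knockout. All knockout libraries exceeded all wild-type libraries for each of the 4. The member that fell was Abcb1a, the export pump P-glycoprotein, at 5.63, 6.97, 10.6 FPKM in wild type, against 0.943, 2.98, 1.49 FPKM in the knockout. Among the amino acid carriers 11 of 18 rose and 1 fell. Slc3a1, which carries the cystine transporter to the membrane, was at 5.704, 6.21, 7.72 FPKM in wild type, against 71.2, 16.6, 51.4 FPKM in the knockout, and Cltrn (collectrin), a partner of several of these carriers, at 10.8, 14.99, 19.3 FPKM in wild type, against 117, 31.96, 73.6 FPKM in the knockout. The member that fell, Slc3a2, is the partner of carriers found in most cells and was at 31.4, 34.2, 37.8 FPKM in wild type, against 16.3, 21.6, 9.53 FPKM in the knockout. With 1 library left out, limma lost Cltrn without wild-type library 1 (adjusted p = 0.0561) and Slc3a2 without wild-type libraries 1 and 3 (0.078 and 0.0871) or knockout library 3 (0.132). The count that rose ran from 10 (without wild-type library 1) to 18 (without knockout library 2) for organic ions and from 4 (without wild-type library 1) to 13 (without knockout library 2) for amino acids. In the fit with the colon and lung covariate 0 of either list passed, with medians of 0.59 and 0.57.

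Of the 23 transcription factors of tubular identity, 9 rose and 0 fell (median 0.70). These included Tfap2b, a factor of the distal nephron, at 1.25, 3.05, 1.64 FPKM in wild type, against 7.29, 4.18, 5.55 FPKM in the knockout, Lhx1 at 0.197, 0.472, 0.317 FPKM in wild type, against 1.603, 1.09, 0.989 FPKM in the knockout and Emx1 at 1.73, 4.52, 3.22 FPKM in wild type, against 10.5, 4.86, 9.36 FPKM in the knockout. The groups did not overlap for any of the 3. The calls ended for Tfap2b without wild-type library 1 (adjusted p = 0.0615), Lhx1 without wild-type library 1 (0.0561) and Emx1 without wild-type libraries 1 and 3 (0.127 and 0.0614), and the count for the list ran from 1 (without wild-type library 1) to 13 (without knockout library 2). It was 0 with the covariate (median 0.25).

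In the thick ascending limb, the segment that dilutes urine, 6 of 14 rose and 0 fell (median 1.23). Egf, made in this segment and the distal tubule, was at 0.424, 0.987, 1.51 FPKM in wild type, against 21.4, 1.79, 13.9 FPKM in the knockout and Kcnj1, the potassium channel ROMK, at 2.79, 6.23, 5.04 FPKM in wild type, against 39.4, 7.62, 20.2 FPKM in the knockout. Bsnd, a chloride channel subunit, was at 1.85, 5.22, 4.46 FPKM in wild type, against 17.8, 5.66, 16.1 FPKM in the knockout. In each of these genes knockout libraries 1 and 3 were several times above wild type and library 2 was just above the highest wild-type value. The marker Umod (uromodulin) was at 39.2, 117, 67.9 FPKM in wild type, against 338, 69.8, 189 FPKM in the knockout, with knockout library 2 inside the wild-type range, and it did not pass (1.27 ± 0.48 (SE), adjusted p = 0.075). Nor did Slc12a1, the cotransporter that furosemide blocks, at 9.88, 39.1, 27.00 FPKM in wild type, against 152, 11.8, 73.5 FPKM in the knockout (1.19 ± 0.63 (SE), adjusted p = 0.207). Without wild-type library 1, 0 members passed, and without knockout library 2, 12 did. The calls of Egf without wild-type library 1 (adjusted p = 0.103), Kcnj1 without wild-type library 1 (0.113) and Bsnd without wild-type library 1 (0.131) ended in this way. The covariate left 0 members past the threshold and a median of -0.58, opposite in sign.

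Further along, 3 of 14 genes of the distal convoluted tubule rose and 1 fell, and 3 of 14 of principal cells rose. Kcnj10, a basolateral potassium channel, was at 0.4199, 1.45, 0.822 FPKM in wild type, against 4.28, 1.62, 2.43 FPKM in the knockout, and the magnesium channel gene Trpm6, which fell, at 1.99, 2.44, 4.79 FPKM in wild type, against 0.584, 1.79, 0.501 FPKM in the knockout. Slc12a3, the thiazide-sensitive cotransporter, did not pass, at 19.9, 39.1, 28.1 FPKM in wild type, against 21.5, 48.02, 29.98 FPKM in the knockout. Avpr2, the vasopressin receptor of principal cells, was at 0.0957, 0.188, 0.285 FPKM in wild type, against 3.31, 0.6398, 2.71 FPKM in the knockout, and Aqp3, a water channel of their basolateral side, at 5.32, 3.91, 5.05 FPKM in wild type, against 27.6, 6.07, 14.7 FPKM in the knockout. Aqp2, the vasopressin-regulated water channel, overlapped between groups, at 75.6, 103, 108 FPKM in wild type, against 275, 75.9, 191 FPKM in the knockout, and did not pass (0.75 ± 0.41 (SE), adjusted p = 0.226). Intercalated cells secrete acid or base in the collecting duct, and 7 of their 14 genes rose and 0 fell (median 0.87). The proton pump subunit gene Atp6v1b1 was at 2.27, 2.697, 2.34 FPKM in wild type, against 13.2, 7.15, 11.5 FPKM in the knockout, and the water channel gene Aqp6 at 1.01, 1.32, 1.89 FPKM in wild type, against 16.9, 3.59, 8.91 FPKM in the knockout. In each of them all knockout libraries were above wild type, with library 2 the lowest of the 3. Calls were lost with 1 library left out for Kcnj10 without wild-type libraries 1 and 3 (adjusted p = 0.134 and 0.0725), Trpm6 without wild-type library 3 (0.086), Avpr2 without wild-type library 1 (0.0652), Aqp3 without wild-type libraries 1 and 3 (0.113 and 0.0814) and Aqp6 without wild-type library 1 (0.0512). The counts that rose ran from 0 (without wild-type library 1) to 3 (without wild-type library 2 or knockout library 2 or 3), from 0 (without wild-type library 1) to 6 (without knockout library 2) and from 3 (without wild-type library 1) to 8 (without knockout library 2). All 3 counts were 0 with the covariate, with medians of 0.42, -0.32 and 0.47.

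Falls among glomerular and vascular genes were near the share of all genes, and no rise passed. Of 10 podocyte genes 0 rose and 1, Nes (nestin), fell (10.0%), beside 8.89% and 8.79% of all genes. Of 17 endothelial genes 0 rose and 1, Ramp2, a receptor partner of adrenomedullin, fell (5.88%). Nes was at 1.56, 1.49, 1.75 FPKM in wild type, against 0.209, 1.34, 0.516 FPKM in the knockout and Ramp2 at 4.95, 3.695, 5.12 FPKM in wild type, against 2.34, 2.55, 2.19 FPKM in the knockout. The slit diaphragm gene Nphs1 (nephrin) overlapped between groups, at 0.742, 0.729, 1.103 FPKM in wild type, against 1.04, 0.669, 0.671 FPKM in the knockout. The lists' medians were -0.43 and -0.36, and the change was above 0 for 0 of the 10 and 1 of the 17. With the colon and lung covariate 0 of either list passed, and the medians turned to 0.21 and 0.20. The calls ended for Nes without wild-type libraries 1 and 3 (adjusted p = 0.138 and 0.127) or knockout libraries 1 and 3 (0.243 and 0.0995) and Ramp2 without wild-type libraries 1 and 3 (0.0802 and 0.0923) or knockout libraries 1 and 3 (0.0857 and 0.115), and without knockout library 2 the counts were 3 and 2.

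Nuclear genes of the respiratory chain rose. Of complex I, 16 of 37 rose and 0 fell (median 0.93), and of complexes II to V, 31 of 39 rose and 0 fell (median 2.23). Uqcr10, a subunit of complex III, was at 32.4, 43.02, 45.4 FPKM in wild type, against 444, 186, 253 FPKM in the knockout and its neighbour in that complex, Uqcrb, at 24.2, 30.03, 39.8 FPKM in wild type, against 314, 132, 193 FPKM in the knockout. Ndufs8, an iron-sulfur subunit of complex I, was at 14.4, 15.3, 20.4 FPKM in wild type, against 179.6, 78.2, 116 FPKM in the knockout, and Atp5e, a subunit of ATP synthase, at 12.6, 13.1, 14.5 FPKM in wild type, against 145, 54.3, 85.9 FPKM in the knockout. Each knockout library was several times above each wild-type library, in the order 1, 3, 2. The count for complexes II to V ran from 29 (without wild-type library 1) to 34 (without knockout library 2), and that for complex I from 10 (without wild-type library 1) to 31 (without knockout library 2). With the colon and lung covariate both counts were 0, and the medians were 1.20 and 0.00. The median level of complexes II to V was 18.4, 22.4, 26.3 FPKM in wild type, against 179, 62.5, 104 FPKM in the knockout. In the second set's wild type it was 107, 115, 96.9 FPKM, and the cause of the low wild-type levels here was not tested. Transcripts of the mitochondrial genome did not follow. Of its 15 protein and ribosomal RNA genes 1 rose, mt-Nd4l, at 2860.2, 4125, 1901 FPKM in wild type, against 5364, 6431, 7653 FPKM in the knockout, and the median was 0.08. Without wild-type library 1 or 3 it did not pass (adjusted p = 0.0857 and 0.0753). Of the 22 mitochondrial transfer RNA genes 2 rose and 3 fell, and mt-Tg fell most, at 241, 235, 101 FPKM in wild type, against 8.36, 18.9, 8.47 FPKM in the knockout. Short transfer RNAs are poorly caught by poly(A) selection. Of the 35 genes of the mitochondrial ribosome 0 passed in limma and 10 were at an unadjusted p under 0.05, and without knockout library 2, 8 passed.

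Pathways that feed the respiratory chain rose in part. Of 25 genes of mitochondrial fatty acid oxidation 8 rose and 0 fell. Ech1, a dienoyl-CoA isomerase, had the largest rise of all genes named, at 6.62, 6.82, 7.17 FPKM in wild type, against 567, 219.7, 298 FPKM in the knockout. Its wild-type values lay within 1 FPKM of each other, and knockout library 2 was again the lowest of its group. The medium-chain dehydrogenase Acadm was at 5.91, 6.63, 7.53 FPKM in wild type, against 224, 67.99, 142 FPKM in the knockout, and the very-long-chain dehydrogenase Acadvl at 7.500, 11.1, 12.7 FPKM in wild type, against 234, 108, 114 FPKM in the knockout. Etfb, which takes electrons from both enzymes, was at 46.95, 51.5, 64.01 FPKM in wild type, against 689, 235, 371 FPKM in the knockout. In the second set's wild type, under the same injury, Ech1 was at 206, 255, 191 FPKM, Acadm at 137, 214, 174 FPKM and Acadvl at 181, 211, 175 FPKM. The wild-type libraries of this comparison were far below these levels, and the cause was not tested. In the citric acid cycle and pyruvate entry 6 of 29 rose and 1 fell. The malate dehydrogenases Mdh1, of the cytosol, and Mdh2, the mitochondrial one of the cycle itself, rose by 3.96 and 2.32. The gene that fell was Pdk4, the kinase that shuts off pyruvate dehydrogenase, at 34.8, 29.8, 33.1 FPKM in wild type, against 12.4, 13.8, 4.74 FPKM in the knockout. Of 33 peroxisome genes 12 rose and 0 fell. The call of Pdk4 ended without wild-type library 1 (adjusted p = 0.0503), when 5 peroxisome genes were higher. Without knockout library 2, 13 genes of the cycle and 13 of fatty acid oxidation were higher. The covariate left 2 genes of fatty acid oxidation higher (median -0.23), 0 of the cycle (0.06) and 0 of the peroxisome (-0.02).

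Amino acid breakdown, which the proximal tubule carries out on reabsorbed amino acids, had 22 of 33 genes higher and 0 lower (median 1.01). Pcbd1, which regenerates the cofactor of phenylalanine hydroxylase, was at 8.25, 12.6, 12.9 FPKM in wild type, against 159, 44.3, 102 FPKM in the knockout. Bckdha, of the branched-chain ketoacid dehydrogenase, was at 14.8, 14.6, 17.1 FPKM in wild type, against 139, 61.9, 90.4 FPKM in the knockout, and Prodh2, hydroxyproline dehydrogenase, at 0.1299, 0.208, 0.415 FPKM in wild type, against 3.24, 2.395, 3.11 FPKM in the knockout. Library 2 was close to the other knockout libraries for Prodh2 and well below them for Pcbd1. The count was 5 without wild-type library 1 and 27 without knockout library 2. Of 26 genes of glycolysis, gluconeogenesis and fructose use 7 rose and 0 fell. The lactate dehydrogenases Ldha and Ldhb were at 9.59, 15.5, 16.1 FPKM in wild type, against 88.1, 71.96, 67.5 FPKM in the knockout and at 26.2, 62.3, 42.5 FPKM in wild type, against 341, 178, 213 FPKM in the knockout, and the aldolase Aldoa at 81.2, 83.1, 89.99 FPKM in wild type, against 558, 338, 341 FPKM in the knockout. Cholesterol and lipid synthesis had 2 of 26 higher and 2 lower (7.69% each), near the 8.89% and 8.79% of all genes. Hmgcs1, an early enzyme of the pathway, rose by 2.78, at 3.73, 4.46, 7.44 FPKM in wild type, against 61.4, 21.3, 49.5 FPKM in the knockout, while Pmvk, which acts later in it, fell by 0.80. The leave-one-out fits lost Pmvk without wild-type library 3 (adjusted p = 0.0821) or knockout libraries 1 and 3 (0.0684 and 0.0631). For glycolysis the count ran from 4 (without wild-type library 1 or 3) to 8 (without knockout library 2). With the covariate 1 gene of amino acid breakdown (median 0.06) and 1 of glycolysis (-0.32) were higher.

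Enzymes that process drugs and steroids rose in many cases. Of 21 cytochrome P450 genes 10 rose and 2 fell, and of 37 conjugation enzymes 19 rose and 2 fell. Cyp4a12a, an arachidonic acid hydroxylase of male kidney, was at 0.6900, 0.715, 1.72 FPKM in wild type, against 9.78, 6.95, 6.91 FPKM in the knockout, and Cyp4a31 at 15.3, 19.1, 23.8 FPKM in wild type, against 159.6, 50.1, 80.05 FPKM in the knockout. Keg1, a glycine acyltransferase family gene of kidney, was at 1.76, 3.45, 6.39 FPKM in wild type, against 91.6, 29.6, 65.4 FPKM in the knockout. The genes that fell included Cyp4f14, at 1.97, 2.97, 2.51 FPKM in wild type, against 0.2499, 0.771, 0.889 FPKM in the knockout, and the estrogen sulfotransferase Sult1e1, at 8.75, 3.93, 7.77 FPKM in wild type, against 0, 0.6101, 0 FPKM in the knockout. Of 16 genes that androgens keep high in male mouse kidney 11 rose and 0 fell. Slco1a1, an organic anion carrier, was at 0.403, 0.468, 0.427 FPKM in wild type, against 1.996, 1.95, 1.62 FPKM in the knockout, with library 2 level with the other knockouts, and the oxysterol hydroxylase Cyp7b1 at 8.28, 4.91, 14.3 FPKM in wild type, against 124, 15.3, 57.7 FPKM in the knockout. Several of these genes are in the carrier and P450 lists too, so the lists are not separate evidence. Without wild-type library 1 the call of Cyp7b1 ended (adjusted p = 0.0882) and the counts that rose were 3 for P450, 9 for conjugation and 3 for androgen-dependent genes. In the renin-angiotensin and vitamin D list 5 of 16 rose and 0 fell. Agt, angiotensinogen, was at 12.8, 12.04, 16.1 FPKM in wild type, against 76.2, 18.9, 46.6 FPKM in the knockout, and Pth1r, the parathyroid hormone receptor, at 18.5, 26.1, 28.5 FPKM in wild type, against 79.00, 67.6, 53.5 FPKM in the knockout. Neither passed without wild-type library 1 (adjusted p = 0.112 and 0.053), when 0 of the list passed. In the covariate fit 0 of the P450, conjugation, androgen-dependent and renin lists were higher and 2 conjugation genes were lower, with medians of 0.11, 0.34, 0.07 and 0.50.

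**Figure D3:**
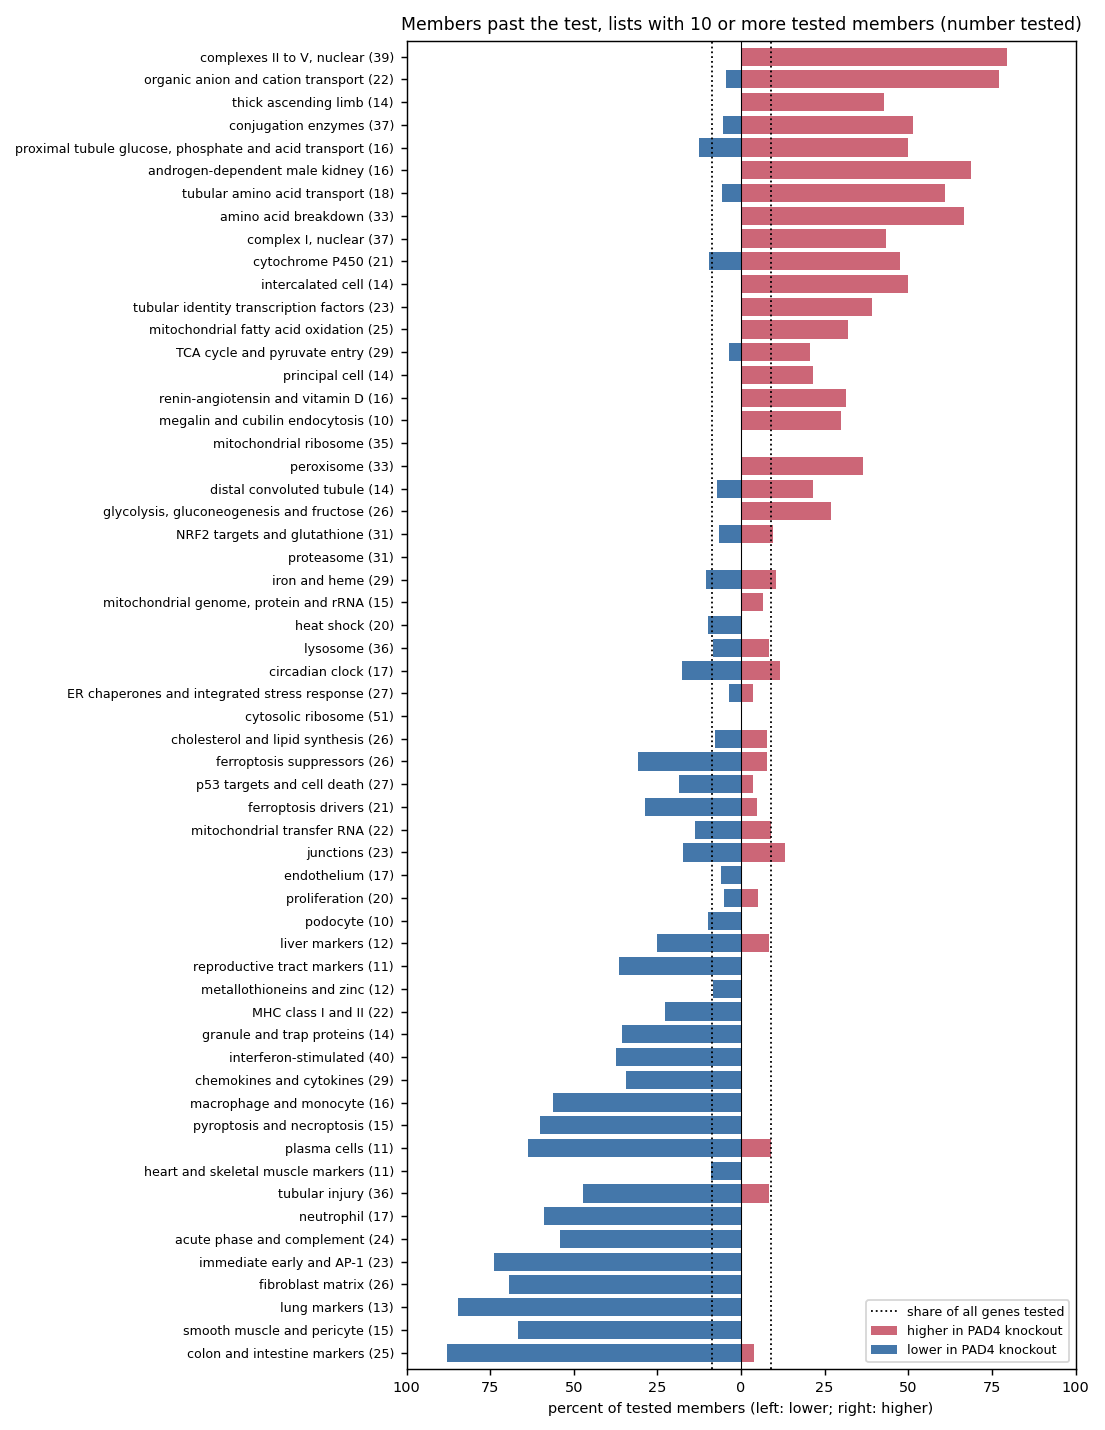
Percent of the tested members of each list that were higher (red, to the right) or lower (blue, to the left) in the PAD4 knockout, for lists with 10 or more tested members, ordered by median change, with the number tested in brackets. Dotted lines mark the shares of all genes, 8.89% and 8.79%, and lists of tubule function and metabolism reach far past the right line while those of colon, lung, smooth muscle and matrix reach far past the left one.

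Genes of tubular injury fell more often than they rose, 17 of 36 against 3 (median -0.92). Havcr1 (KIM-1), the standard marker of an injured proximal tubule, was at 24.6, 10.9, 25.9 FPKM in wild type, against 0.885, 46.9, 1.15 FPKM in the knockout. Knockout library 2 had the highest value of the 6 and libraries 1 and 3 the lowest, so the groups overlapped and the change did not pass (-1.80 ± 0.77 (SE), adjusted p = 0.114). Lcn2, the secreted marker NGAL, was at 102, 135, 166 FPKM in wild type, against 90.2, 95.6, 39.7 FPKM in the knockout and did not pass either (-0.90 ± 0.37 (SE), adjusted p = 0.102). The keratin gene Krt20 was at 65.9, 47.6, 59.1 FPKM in wild type, against 1.87, 23.5, 8.39 FPKM in the knockout and fell by 2.74, and the colon makes it too. Sox9, a factor of regenerating tubules, was at 3.13, 3.11, 3.49 FPKM in wild type, against 0.243, 1.71, 0.324 FPKM in the knockout and Cdkn1a, the cell cycle inhibitor p21, at 14.2, 15.8, 14.5 FPKM in wild type, against 2.22, 5.97, 2.81 FPKM in the knockout. The wild-type values of both were close to each other, and knockout libraries 1 and 3 were furthest from them. Those that rose were Clu (clusterin), Plau (urokinase) and the calcium-binding protein gene S100a11. Clu was at 24.8, 20.8, 27.3 FPKM in wild type, against 52.8, 109.6, 30.9 FPKM in the knockout, highest in library 2, and Plau at 20.7, 18.4, 27.98 FPKM in wild type, against 105, 62.9, 66.7 FPKM in the knockout. Leaving out a library ended the calls of Krt20 without wild-type library 1 (adjusted p = 0.0589) and Clu without wild-type libraries 1, 2 and 3 (0.162, 0.074 and 0.106) or knockout library 2 (0.152). The count that fell ran from 5 (without wild-type library 1) to 23 (without knockout library 2). With the colon and lung covariate it was 0, while 4 were higher, and the median turned to 0.32.

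Immediate early and AP-1 genes, switched on within minutes by stress or by handling of tissue, fell in 17 of 23 and rose in 0 (median -1.10). Klf4 was at 11.1, 13.1, 23.1 FPKM in wild type, against 1.93, 7.22, 4.198 FPKM in the knockout, and the MAP kinase phosphatase Dusp5 at 5.28, 4.100, 6.14 FPKM in wild type, against 1.05, 2.71, 0.663 FPKM in the knockout. In both, all knockout values lay under all wild-type values. Among 27 targets of p53 and cell death genes 1 rose and 5 fell. The one that rose, Bax, opens the outer mitochondrial membrane, and it was at 9.67, 11.6, 15.00 FPKM in wild type, against 60.6, 61.9, 38.8 FPKM in the knockout. Library 2 was level with library 1. The counts that fell ran from 7 (without wild-type library 1 or 3) to 22 (without knockout library 2) for immediate early genes and from 1 (without wild-type library 3) to 6 (without knockout library 2) for p53 targets. Of 24 acute phase and complement genes 13 fell and 0 rose. Fgg, a chain of fibrinogen, was at 25.9, 31.8, 35.3 FPKM in wild type, against 8.19, 10.9, 3.44 FPKM in the knockout, and Saa1, serum amyloid A, at 25.4, 32.7, 44.6 FPKM in wild type, against 3.71, 13.1, 6.91 FPKM in the knockout. That count ran from 8 (without wild-type library 1) to 19 (without knockout library 2). Colon expresses immediate early, Saa and complement genes as well, and its part in these falls was not tested. With the covariate 0 of these 3 lists were lower and 1 immediate early gene was higher, with medians of 0.03, -0.03 and -0.01.

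Ferroptosis genes, drivers and suppressors alike, fell more often than they rose. Of 21 drivers 1 rose (4.76%) and 6 fell (28.6%), and of 26 suppressors 2 rose (7.69%) and 8 fell (30.8%). The shares of all genes were 8.89% and 8.79%. Acsl4, which supplies the polyunsaturated lipids that are oxidised, was at 16.01, 45.01, 20.01 FPKM in wild type, against 3.84, 4.08, 2.19 FPKM in the knockout (-2.57 ± 0.34 (SE), adjusted p = 0.000115). All 3 knockout libraries were below every wild-type library, and library 2 was level with library 1. Sat1, a polyamine enzyme that sensitises cells, was at 133, 158, 168 FPKM in wild type, against 64.00, 75.3, 42.2 FPKM in the knockout, and the lipoxygenase Alox15 at 1.46, 1.67, 4.98 FPKM in wild type, against 0.358, 1.27, 0.236 FPKM in the knockout. The driver that rose was the NADPH oxidase Nox4, at 0.429, 0.995, 0.606 FPKM in wild type, against 1.61, 2.46, 1.29 FPKM in the knockout. Gpx4, the peroxidase that reduces lipid peroxides and holds ferroptosis back, was at 136, 136, 169 FPKM in wild type, against 203, 93.2, 121 FPKM in the knockout and did not pass (-0.15 ± 0.35 (SE), adjusted p = 0.836). Slc7a11, the cystine importer that feeds it with glutathione, was below the level tested, at 0.289, 0.301, 0.592 FPKM in wild type, against 0.0601, 0.354, 0.06098 FPKM in the knockout. Of the suppressors, Hspb1 was at 49.3, 66.3, 65.99 FPKM in wild type, against 9.197, 28.1, 15.7 FPKM in the knockout and fell, as did Acsl3, at 3.98, 5.85, 8.604 FPKM in wild type, against 1.46, 3.24, 1.94 FPKM in the knockout. Gclm, a subunit of the first enzyme of glutathione synthesis, was at 7.91, 10.1, 10.2 FPKM in wild type, against 48.9, 16.9, 27.8 FPKM in the knockout and rose. With 1 library left out, limma lost Sat1 without wild-type library 3 (adjusted p = 0.0538), Alox15 without wild-type libraries 1 and 3 (0.0551 and 0.0872), Nox4 without wild-type libraries 1 and 3 (0.115 and 0.0795) or knockout library 2 (0.0527), Acsl3 without wild-type library 3 (0.0624) and Gclm without wild-type library 1 (0.0736). The count of drivers that fell ran from 1 (without wild-type library 3) to 7 (without knockout library 2) and that of suppressors from 1 (without wild-type library 3) to 8 (without knockout library 1). With the covariate 0 of either list passed (medians -0.08 and -0.13).

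In iron handling 3 of 29 rose and 3 fell (10.3% each), near the 8.89% and 8.79% of all genes. The ferritin genes went opposite ways. Ftl1, the light chain, was at 919.9, 1353, 1076 FPKM in wild type, against 3028, 2104, 1722 FPKM in the knockout, and Fth1, the heavy chain, at 569.9, 759, 586 FPKM in wild type, against 411, 309, 291 FPKM in the knockout. The groups did not overlap for either, and the changes were 1.01 ± 0.31 (SE), adjusted p = 0.0275 and -0.93 ± 0.31 (SE), adjusted p = 0.0484. Both calls were lost in several of the fits that left out a library, for Ftl1 without wild-type libraries 1 and 3 (adjusted p = 0.153 and 0.0954) and Fth1 without wild-type libraries 1, 2 and 3 (0.113, 0.249 and 0.102) or knockout libraries 2 and 3 (0.0863 and 0.151). Ferritin has many near-identical pseudogenes, so these values are uncertain. The iron exporter gene Slc40a1 (ferroportin) fell, at 4.81, 5.28, 9.21 FPKM in wild type, against 1.98, 3.49, 2.06 FPKM in the knockout, and was at adjusted p = 0.067 without wild-type library 3. The transferrin receptor Tfrc, at 3.13, 4.13, 5.84 FPKM in wild type, against 5.001, 3.78, 2.74 FPKM in the knockout, and the heme oxygenase Hmox1, at 64.1, 111, 58.04 FPKM in wild type, against 61.6, 65.2, 9.74 FPKM in the knockout, overlapped between groups and did not pass. Of 31 NRF2 targets and glutathione genes 3 rose (9.68%) and 2 fell (6.45%), also near the shares of all genes. Sod3, the extracellular superoxide dismutase, was at 9.002, 18.5, 16.3 FPKM in wild type, against 87.8, 24.9, 56.9 FPKM in the knockout and catalase, Cat, at 24.5, 33.7, 28.7 FPKM in wild type, against 129.5, 39.8, 69.2 FPKM in the knockout. Gpx2, a glutathione peroxidase of gut epithelium, fell, at 2.69, 3.72, 6.17 FPKM in wild type, against 0.483, 1.55, 0.679 FPKM in the knockout. The calls of Sod3 and Cat ended without wild-type library 1 (adjusted p = 0.0958 and 0.16). Leaving out other libraries ended that of Cat without wild-type library 3 (0.101) and without knockout library 1 (0.0779). The covariate fit left 0 of the iron and NRF2 lists past the threshold.

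Immune cell genes fell. Of 17 neutrophil genes 10 fell and 0 rose (median -0.98), of 14 granule and trap proteins 5 fell and 0 rose, of 16 macrophage and monocyte genes 9 fell and 0 rose, and of 5 genes of T, B and NK cells 2 fell. Pglyrp1, a granule protein that binds bacterial wall, was at 6.39, 6.17, 10.5 FPKM in wild type, against 0.887, 3.19, 1.11 FPKM in the knockout, and the neutrophil surface gene Cd177 at 1.35, 2.199, 2.803 FPKM in wild type, against 0.252, 0.832, 0.417 FPKM in the knockout. Ly6g, the marker by which mouse neutrophils are sorted, was at 4.67, 4.64, 9.88 FPKM in wild type, against 1.38, 3.12, 1.704 FPKM in the knockout. For each of these all knockout libraries were under all wild-type libraries, with library 2 the highest of the 3. S100a8 and S100a9, the subunits of calprotectin, were at 8.21, 35.5, 6.14 FPKM in wild type, against 1.97, 12.5, 0.729 FPKM in the knockout and at 26.9, 105, 18.5 FPKM in wild type, against 6.25, 29.9, 5.29 FPKM in the knockout. Wild-type library 2 stood far above the others and knockout library 2 fell within the wild-type range, so the groups overlapped although limma passed both (adjusted p = 0.049 and 0.0315). Lyz2, lysozyme of macrophages and neutrophils, was at 46.4, 114, 89.5 FPKM in wild type, against 10.3, 37.3, 14.5 FPKM in the knockout, and Chil3 at 5.75, 22.6, 8.99 FPKM in wild type, against 1.17, 3.96, 0.983 FPKM in the knockout. Calls were lost with 1 library left out for Ly6g without wild-type library 3 (adjusted p = 0.0501), S100a8 without wild-type libraries 1 and 3 (0.187 and 0.0835) or knockout library 3 (0.133) and S100a9 without wild-type libraries 1 and 3 (0.153 and 0.0538) or knockout library 3 (0.0627). The counts that fell ran from 4 (without wild-type library 1) to 17 (without knockout library 2) for neutrophils, from 3 (without wild-type library 1, 2 or 3 or knockout library 3) to 9 (without knockout library 2) for granule proteins and from 3 (without wild-type library 3) to 12 (without knockout library 2) for macrophages. In the fit with the covariate 0 of these 4 lists were lower and 1 granule gene was higher, and the medians of the first 3 turned to 0.53, 0.11 and 0.13. In the second set's wild type, under the same injury, Ly6g was at 0.132, 0, 0 FPKM, S100a8 at 1.71, 0.369, 1.37 FPKM and S100a9 at 3.84, 1.23, 3.00 FPKM. The part of other organs' RNA in the falls of immune cell genes was not tested.

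Plasma cell genes fell in 7 of 11 and rose in 1. Jchain, which joins secreted IgA, was at 7.97, 10.6, 14.5 FPKM in wild type, against 1.62, 4.91, 2.76 FPKM in the knockout, and the IgA heavy chain Igha at 32.1, 39.3, 63.6 FPKM in wild type, against 6.47, 20.7, 14.7 FPKM in the knockout. Of 51 tested immunoglobulin heavy and light variable segments 40 fell and 0 rose. IgA plasma cells are a resident of gut lining, and the colon markers given above were lower in the same knockout libraries. Whether gut RNA had a part in the fall of the plasma cell genes was not tested. Of 29 chemokines and cytokines 10 fell and 0 rose, among them Cxcl14, at 30.1, 41.5, 11.97 FPKM in wild type, against 1.73, 7.32, 3.94 FPKM in the knockout, and the myeloid chemokine Ccl6, at 6.92, 12.5, 10.5 FPKM in wild type, against 0.601, 4.05, 2.203 FPKM in the knockout. Of 15 genes of pyroptosis and necroptosis, 2 forms of inflammatory cell death, 9 fell and 0 rose. Casp1, the caspase of the inflammasome, was at 2.45, 3.95, 3.99 FPKM in wild type, against 0.619, 1.14, 0.872 FPKM in the knockout, Gsdmd, whose fragment forms the membrane pore, at 6.28, 8.26, 10.6 FPKM in wild type, against 2.16, 4.500, 2.995 FPKM in the knockout, and its cytokine substrate Il18 at 3.35, 5.09, 6.72 FPKM in wild type, against 0.983, 2.96, 1.18 FPKM in the knockout. The groups were apart for all 3. The leave-one-out fits lost Igha without wild-type library 3 (adjusted p = 0.0574), Gsdmd without wild-type library 3 (0.0502) and Il18 without wild-type library 3 (0.06). The counts that fell ran from 2 (without wild-type library 3) to 7 (without wild-type library 2 or knockout library 2 or 3) for plasma cells, from 7 (without wild-type library 1) to 21 (without knockout library 2) for chemokines and from 2 (without wild-type library 3) to 11 (without knockout library 2) for pyroptosis. All 3 counts were 0 with the colon and lung covariate (medians -0.14, 0.22 and 0.22), and 4 chemokine genes were higher.

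Interferon-stimulated genes, the antiviral program that interferons switch on in most cells, fell in 15 of 40 and rose in 0 (median -0.63). Oas1a, a sensor of double-stranded RNA, was at 5.897, 10.2, 8.42 FPKM in wild type, against 2.27, 3.39, 3.100 FPKM in the knockout, and the guanylate-binding protein gene Gbp2 at 6.99, 18.3, 8.66 FPKM in wild type, against 1.64, 5.56, 3.505 FPKM in the knockout. Zbp1, a nucleic acid sensor that can start necroptosis, was at 1.79, 3.297, 2.94 FPKM in wild type, against 0.217, 1.204, 0.801 FPKM in the knockout. Every knockout library was lower than every wild-type library in these genes, which all passed in each fit that left out a library. The count for the list ran from 7 (without wild-type library 3) to 21 (without knockout library 2). Interferon acts through a promoter element, the ISRE, searched here as GAAANNGAAA on both strands in the 250 bases before the gene's start, in RefSeq promoters on GRCm38.p6. It was found in 15 of the 28 windows matched for this list (53.6%), in 6 of the 11 for its genes that fell (54.5%), and in 821 of all 27025 windows (3.04%). Windows of all genes that fell held it in 39 of 812 cases (4.80%), those of genes that rose in 16 of 769 (2.08%) and those of genes not past the test in 201 of 8167 (2.46%). The promoters of Oas1a and Gbp2 are shown 5′ to 3′ with the matches in capitals, at chr5:120907526-120907775 on the minus strand and chr3:142620413-142620662 on the plus strand. Oas1a has 2 matches that overlap, beginning 20 and 14 bases before the start, and the match of Gbp2 is read on the other strand. A match is only a run of letters and shows no binding. In the presentation of antigen by MHC, 5 of 22 fell and 0 rose. Cd74, the chain that escorts class II molecules, was at 47.2, 76.97, 75.1 FPKM in wild type, against 16.3, 30.7, 28.4 FPKM in the knockout, and the class II gene H2-Aa at 6.12, 10.3, 11.1 FPKM in wild type, against 2.56, 4.35, 4.73 FPKM in the knockout. Without wild-type library 3, 0 of the list passed. With the covariate 0 of the interferon-stimulated and 0 of the MHC genes were lower, with medians of 0.13 and -0.07.
Oas1a: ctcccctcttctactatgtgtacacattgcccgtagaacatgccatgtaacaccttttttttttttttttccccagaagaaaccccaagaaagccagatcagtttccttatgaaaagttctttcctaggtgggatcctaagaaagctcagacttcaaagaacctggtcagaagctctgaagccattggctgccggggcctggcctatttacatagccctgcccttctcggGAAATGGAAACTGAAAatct
Gbp2: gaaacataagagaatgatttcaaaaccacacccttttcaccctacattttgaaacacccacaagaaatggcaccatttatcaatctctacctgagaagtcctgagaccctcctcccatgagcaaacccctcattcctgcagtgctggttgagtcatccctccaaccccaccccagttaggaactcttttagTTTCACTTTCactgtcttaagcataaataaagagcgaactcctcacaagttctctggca

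Connective tissue and smooth muscle were lower. Of 26 genes of fibroblast matrix 18 fell and 0 rose (median -1.23), and of 15 of smooth muscle and pericytes 10 fell and 0 rose (median -1.55). Dcn, the proteoglycan decorin, was at 27.7, 39.3, 35.97 FPKM in wild type, against 3.72, 10.8, 7.72 FPKM in the knockout, and Lox, which crosslinks collagen, at 7.04, 13.9, 6.34 FPKM in wild type, against 0.432, 1.83, 0.767 FPKM in the knockout. Pdgfra, a receptor that marks fibroblasts, was at 5.44, 9.21, 3.798 FPKM in wild type, against 0.906, 1.996, 1.598 FPKM in the knockout. The groups did not overlap, and the 3 genes passed in each fit that left out a library. Tagln and Cnn1, contractile proteins of smooth muscle, were at 107, 108, 222 FPKM in wild type, against 12.5, 58.6, 23.6 FPKM in the knockout and at 22.8, 21.6, 49.9 FPKM in wild type, against 3.26, 15.5, 6.71 FPKM in the knockout. Wild-type library 3 was the highest by far in both, and the call of Cnn1 ended without wild-type library 1 (adjusted p = 0.0569) or 3 (0.0608). The counts that fell ran from 8 (without wild-type library 3) to 21 (without knockout library 2) for matrix and from 2 (without wild-type library 1) to 13 (without knockout library 2) for smooth muscle. Gut wall and airway hold much smooth muscle, and their part in these falls was not tested. With the colon and lung covariate both counts were 0, and the medians turned to 0.13 and 0.15. In the junction list 3 of 23 rose and 4 fell. Ctnnb1, beta-catenin, was at 8.45, 12.6, 15.3 FPKM in wild type, against 54.8, 58.97, 50.2 FPKM in the knockout and Cdh16, the kidney-specific cadherin, at 27.99, 32.8, 33.9 FPKM in wild type, against 95.3, 51.99, 65.5 FPKM in the knockout, while Cdh17, the cadherin of the intestine, fell, at 4.83, 7.13, 9.62 FPKM in wild type, against 0.815, 3.36, 1.62 FPKM in the knockout. The call of Cdh16 ended for Cdh16 without wild-type libraries 1, 2 and 3 (adjusted p = 0.112, 0.0622 and 0.0714) or knockout library 1 (0.0683).

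Markers of other organs were lower in many cases. Of the 25 colon markers 22 fell, 1 rose and 2 did not pass, and of the 13 tested lung markers 11 fell and 0 rose. Lypd8, a protein that keeps bacteria off the colon lining, was at 304, 390.4, 549.7 FPKM in wild type, against 35.8, 169, 95.7 FPKM in the knockout, and Cdx1, the intestinal transcription factor, at 6.75, 10.01, 12.9 FPKM in wild type, against 0.652, 3.55, 1.99 FPKM in the knockout. Sftpd, a surfactant protein, was at 7.69, 11.05, 11.6 FPKM in wild type, against 0.7899, 3.08, 0.692 FPKM in the knockout, and Scgb1a1, of airway club cells, at 177, 535, 266 FPKM in wild type, against 35.8, 119.9, 25.5 FPKM in the knockout. All wild-type libraries were above all knockout libraries, and knockout library 2 was the highest of its group. The marker that rose was Guca2b, uroguanylin, which the proximal tubule makes as well, at 74.7, 55.3, 87.4 FPKM in wild type, against 344, 106, 211 FPKM in the knockout. Without wild-type library 1 its adjusted p was 0.103, without wild-type library 3 it was 0.0549, and the colon count that fell ran from 16 (without wild-type library 1) to 22 (without knockout library 2). Of 11 pancreas markers matched 3 were tested and all 3 fell, but 1 of them, Zg16, is in the colon list too. Below the level tested, Pnlip was at no more than 0.0271 FPKM, Amy2a5 at 0.00987 FPKM and Ctrb1 at 0.181 FPKM. Reproductive tract markers fell in 4 of 11, liver markers in 3 of 12 with 1 higher, and heart and skeletal muscle markers in 1 of 11. Without knockout library 2, 9 of the heart and muscle markers were lower. Of 9 adipose markers 0 passed in limma and 0 were at an unadjusted p under 0.05. Ucp1, the uncoupling protein of brown fat, was at 0.05701, 3.04, 0.319 FPKM in wild type, against 0.07102, 0.0403, 79.97 FPKM in the knockout, and Cidea, of fat droplets, at 0.116, 0.652, 0.137 FPKM in wild type, against 0.0474, 0.194, 10.3 FPKM in the knockout. Knockout library 3 was far above the other 5 for both. Ucp1 was not past the threshold (adjusted p = 0.41), and without knockout library 3 its change was -0.75. Urothelium markers, of the lining of the renal pelvis and bladder, rose in 3 of 8. Upk3a, a uroplakin, was at 0.123, 1.47, 0.131 FPKM in wild type, against 5.29, 0.404, 8.35 FPKM in the knockout, with knockout library 2 inside the wild-type range, and its call ended for Upk3a without wild-type libraries 1 and 3 (adjusted p = 0.242 and 0.172).

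**Figure D4:**
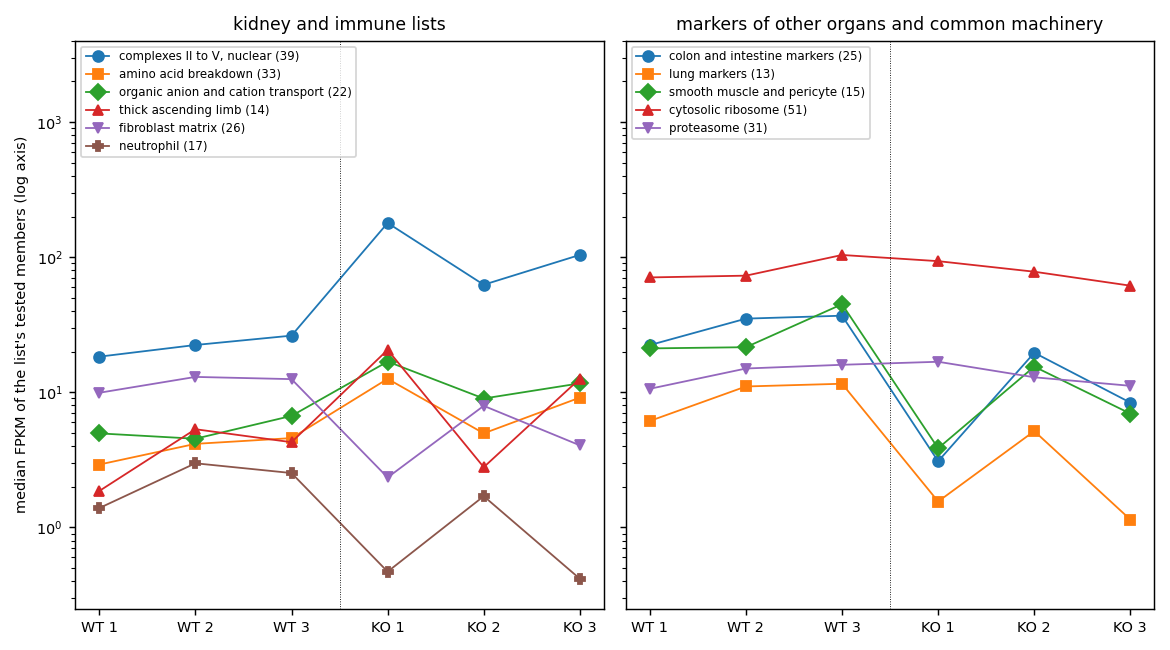
Median FPKM, on a log axis, of the tested members of 11 lists in each library, with lines that join the same list across libraries and no order implied among replicates. Complexes II to V, amino acid breakdown and organic ion carriers are highest in knockout libraries 1 and 3, and matrix, neutrophil, colon, lung and smooth muscle lists are lowest there. Knockout library 2 lies between these and wild type except for the neutrophil and thick ascending limb lists, where it is within the wild-type range, and the cytosolic ribosome and proteasome lists overlap between genotypes.

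Much of the common machinery of cells did not pass. Of 51 genes of the cytosolic ribosome 0 passed in limma, with 2 at an unadjusted p under 0.05 and a median of -0.015, and of 31 proteasome genes 0 passed, with 1 at an unadjusted p under 0.05 and a median of 0.13. Of 27 genes of endoplasmic reticulum chaperones and the integrated stress response 1 rose and 1 fell. Atf5, a factor of the mitochondrial stress response, was at 5.26, 7.05, 6.503 FPKM in wild type, against 18.3, 13.4, 21.1 FPKM in the knockout, and Ppp1r15a, which ends the stress signal, at 12.4, 8.87, 16.4 FPKM in wild type, against 4.29, 5.83, 4.52 FPKM in the knockout. These went opposite ways, and the call of Ppp1r15a ended without wild-type library 1 (adjusted p = 0.0504). Of 20 heat shock genes 2 fell (10.0%), beside 8.79% of all genes. Of 12 metallothionein and zinc genes 1 fell (8.33%), Slc39a4, a zinc importer of gut, by 1.69. Of 36 lysosome genes 3 rose and 3 fell (8.33% each). Among the last, the proton pump subunit Atp6v0c was at 9.65, 10.8, 14.8 FPKM in wild type, against 90.5, 47.3, 48.3 FPKM in the knockout, while the protease Ctss of immune cells was at 15.9, 25.6, 34.3 FPKM in wild type, against 3.25, 12.9, 7.67 FPKM in the knockout and lost its call without wild-type library 3 (adjusted p = 0.0663). Clock genes rose in 2 of 17 and fell in 3, among them the repressor Nfil3, at 3.504, 5.500, 3.79 FPKM in wild type, against 0.652, 2.37, 0.725 FPKM in the knockout. Of 20 proliferation genes 1 rose and 1 fell. Ccnd1, cyclin D1, was at 1.99, 3.498, 3.44 FPKM in wild type, against 24.3, 9.999, 15.1 FPKM in the knockout, and Ccnd2, cyclin D2, at 1.58, 2.38, 3.05 FPKM in wild type, against 0.477, 1.15, 0.716 FPKM in the knockout. Without wild-type library 3 Ccnd2 did not pass (adjusted p = 0.0528), and without knockout library 2, 8 genes of that list were lower. The 1 tested replication histone gene, Hist1h1c, did not pass, at 18.2, 18.5, 29.4 FPKM in wild type, against 25.8, 11.5, 27.5 FPKM in the knockout.

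Among the 20 largest rises, those ranked below the first 10 were of the same groups and some others. Pcyt2, of phosphatidylethanolamine synthesis, was at 7.15, 12.2, 12.8 FPKM in wild type, against 101, 52.6, 91.2 FPKM in the knockout, and Atp1b1, the beta subunit of the sodium pump, at 24.7, 37.2, 52.6 FPKM in wild type, against 419, 141, 247 FPKM in the knockout. Lpl, lipoprotein lipase, was at 2.27, 3.88, 3.62 FPKM in wild type, against 40.8, 12.8, 30.5 FPKM in the knockout. Nat8f6 and Nat8f1, of a family of acetyltransferases with near-identical copies, were at 0.672, 0.7203, 0.996 FPKM in wild type, against 15.3, 6.296, 13.1 FPKM in the knockout and at 2.17, 1.799, 4.64 FPKM in wild type, against 36.9, 7.701, 37.4 FPKM in the knockout, and their split between copies is uncertain. Every knockout library was above every wild-type library in these genes, as the naming rule required. Among the 20 largest falls, ranks 11 to 20 were mostly genes of gut and smooth muscle. Zg16, Clca1 and Mptx1, products of the gut epithelium, were at 57.2, 73.7, 109 FPKM in wild type, against 7.16, 28.5, 16.5 FPKM in the knockout, 57.04, 50.5, 101 FPKM in wild type, against 6.05, 29.3, 11.8 FPKM in the knockout and 34.02, 33.6, 75.2 FPKM in wild type, against 3.204, 19.7, 8.04 FPKM in the knockout. Sycn, a protein of pancreatic and gut secretory cells, was at 68.9, 67.9, 143 FPKM in wild type, against 7.696, 36.9, 15.4 FPKM in the knockout, and Cyp2c55, a P450 of colon, at 16.4, 27.4, 27.4 FPKM in wild type, against 1.49, 7.55, 4.501 FPKM in the knockout. Map3k6, a stress kinase, was at 18.4, 11.3, 15.8 FPKM in wild type, against 1.56, 4.17, 1.42 FPKM in the knockout.

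Noncoding genes were called more often as higher than as lower. Antisense transcripts rose in 61 of 207 and fell in 10, and long intergenic RNAs rose in 53 of 187 and fell in 16, beside 8.89% and 8.79% of all genes. Processed pseudogenes rose in 38 of 748 and fell in 25. The libraries are strand-specific per the labels, but how strand was used in counting is not stated there, so reads of a gene and of its antisense partner may not be fully parted. Of 6 nuclear long noncoding RNAs 2 rose, Neat1, the scaffold of paraspeckles, at 20.9, 27.6, 23.3 FPKM in wild type, against 49.3, 92.9, 47.7 FPKM in the knockout, and Snhg11, at 5.703, 6.94, 7.197 FPKM in wild type, against 19.8, 12.9, 14.2 FPKM in the knockout. Neat1 was highest in knockout library 2. The calls of Neat1 without wild-type libraries 1 and 3 (adjusted p = 0.0843 and 0.0582) and Snhg11 without wild-type library 1 (0.0583) ended with a library left out. Among protein-coding genes, the longest annotated transcript had a median of 2509 bases for those that rose, 2701 for those that fell and 3324 for those not past the test.

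Knockout library 2 was nearer to wild type than the other knockout libraries were for most genes, but not for all. Its place was measured as its distance from the wild-type mean divided by that of the mean of knockout libraries 1 and 3, in log2(FPKM + 1), so that 0 is the wild-type mean and 1 the level of the other knockouts. The median place was 0.63 for genes that rose (quartiles 0.41 and 0.89) and 0.57 for genes that fell (quartiles 0.45 and 0.72). It was at least 1 in 225 genes that rose and 83 that fell, and library 2 lay inside the wild-type range in 69 and 100. The members called in the thick ascending limb list had a median of 0.17, those of amino acid breakdown 0.33, and those of the glucose, phosphate and acid transport list 0.99. Slc2a2, Clu and Neat1, at 2.30, 2.97 and 1.92, exceeded the other knockouts there. The other proximal tubule lists were nearer to the median of all genes that rose, at 0.63 for organic ions, 0.54 for amino acid transport and 0.54 for megalin and cubilin. Without knockout library 2, in a fit with an infinite prior, 1770 genes were higher and 1764 lower.

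**Figure D5:**
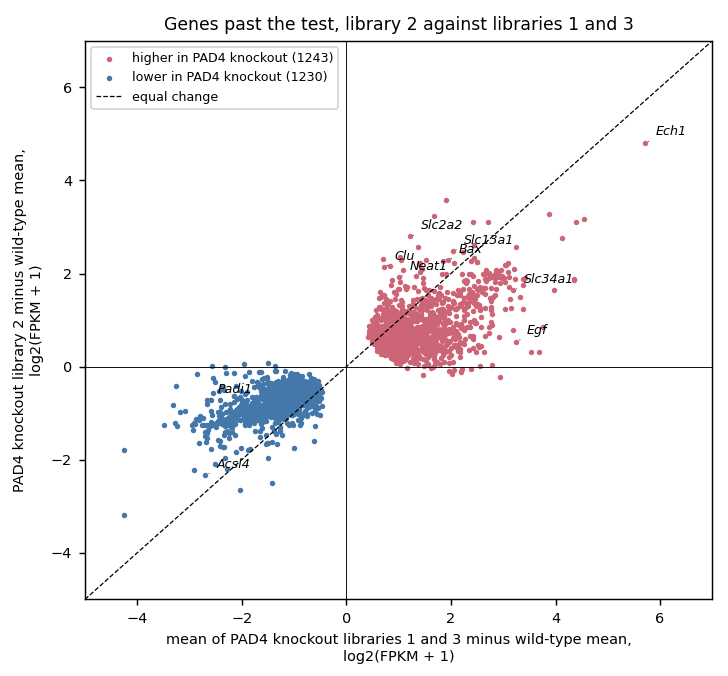
For each gene past the test, the value of PAD4 knockout library 2 minus the wild-type mean (vertical) against the mean of PAD4 knockout libraries 1 and 3 minus the wild-type mean (horizontal), in log2(FPKM + 1). Most points lie between the horizontal axis and the dashed line of equal change. The medians were 0.63 and 0.57 of the way from the axis to the line, while Slc2a2, Slc13a1 and Clu lie above the line.

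The change in the PAD4 knockout was set against that in the IL-33 knockout by a test of the difference over all 12 libraries and 13010 genes tested in both sets. No library is shared between the comparisons, and the sets differ in batch per the labels. They also differ in the colon and lung marker levels given above, and the part of these in the difference was not tested. The difference passed for 1615 genes (12.4%), with the PAD4 change above the IL-33 change in 811 and below it in 804. Complexes II to V had 29 of 39 genes above and 0 below, with medians of 2.23 in the PAD4 knockout and 0.20 in the IL-33 knockout. Matrix genes had 0 of 24 above and 17 below (medians -1.31 and 0.75), interferon-stimulated genes 0 of 37 and 20 (medians -0.72 and 0.85), macrophage genes 1 of 14 and 10, and cholesterol and lipid synthesis 1 of 26 and 19 (medians -0.11 and 1.33). In the proximal tubule list for glucose, phosphate and acid the counts were 2 and 2 of 16 (medians 1.14 and 1.64), and in the thick ascending limb 0 and 1 of 13 (medians 1.27 and 1.74). Lrp2 was at 6.33, 9.41, 9.55 FPKM (second-set wild type) against 79.5, 61.8, 66.03 FPKM (IL-33 knockout), and its 2 changes did not differ past the threshold (-0.999 ± 0.39 (SE), adjusted p = 0.107). Slc13a1 was at 6.89, 8.87, 4.91 FPKM (second-set wild type) against 33.7, 33.9, 51.05 FPKM (IL-33 knockout), with a difference of -0.18 ± 0.32 (SE), adjusted p = 0.762. For Umod the difference was 0.72 ± 0.65 (SE), adjusted p = 0.52, and for Il33 it was -0.51 ± 0.35 (SE), adjusted p = 0.376. Ltf was at 0.0137 to 0.181 FPKM in the second set, below the level tested there, against 4.74 to 96.1 FPKM in the first.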

How the data were processed

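Bulk RNA-seq of mouse kidney was analysed from deposited FPKM values, 1 table per set and 1 column per library, as the authors made them. Library preparation selected poly(A) RNA and kept strand, per the labels' protocols. Tools named in the submitters' processing notes are HISAT2, StringTie, FastQC, cutadapt, edgeR and DESeq2. Their order and versions, the genome build and the annotation: not given in the sources used here. FPKM is relative to each library's own total, and 52.0% to 60.0% of that was mitochondrial, so a shift in those transcripts can move all others. Low values between libraries did not cluster at ratios of whole reads (fullest bin 0.773% to 1.15% of low genes). Depth is thus unknown, and so is what it limits beside the small number of libraries.

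Columns were mapped to samples by name, and 0 columns belonged to no sample. Genes came as Ensembl numbers, and GENCODE M21 gave symbols to 30212 of 32199. Of 1503 names in 65 gene lists 1483 matched. The tests used log2(FPKM + 1) and limma 3.58.1 under R 4.3.3 (eBayes with trend after lmFit, Benjamini-Hochberg over all genes with a mean of at least 0.5 FPKM, adjusted p under 0.05, two-sided) on the 6 libraries of the comparison. This scale understates changes of low genes. An SE is limma's moderated one, from a prior of 15.0 and residual 4 degrees of freedom. The difference from the IL-33 knockout was a contrast of 4 group means. Both tests were tested on simulated data with known changes. The comparison, lists and naming rule were chosen with earlier results of these data known. The rule names a set of key genes, the 20 largest rises and 20 largest falls that passed with groups apart, a mean of at least 1 FPKM and an official-style symbol, and up to 4 members of each list by smallest p (up to 2 where 0 passed) with those that went against their list. Kap and Lypd8 are outside it and were chosen after their values were seen. Promoters are RefSeq's, on GRCm38.p6. Alternatives were another pseudocount, filter, scaling, variance model, block and covariate, and each library left out. A robust prior and no moderation were added after seeing the data. Some results for named genes are not reported here.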

Additional observations from a re-analysis of the deposited data

Results flagged for a closer look

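For 8 of the genes chosen for this comparison, the change in the PAD4 knockout and that in the IL-33 knockout differed by limma's contrast over 12 libraries. Values are the PAD4 change minus the IL-33 change, and levels of the 2 tables were not tested against each other. For Ech1 the difference was 5.82 ± 0.39 (SE), adjusted p = 4.03e-06. It rose in the PAD4 knockout with levels of 206, 255, 191 FPKM (second-set wild type) against 161, 162, 161 FPKM (IL-33 knockout). For Acadm it was 3.68 ± 0.46 (SE), adjusted p = 0.000374, with levels of 137, 214, 174 FPKM (second-set wild type) against 208, 263, 218 FPKM (IL-33 knockout). Cox5b, of complex IV, had a difference of 2.45 ± 0.40 (SE), adjusted p = 0.00157, with levels of 93.5, 122, 88.97 FPKM (second-set wild type) against 107, 116, 114 FPKM (IL-33 knockout). These 3 metabolic genes thus rose in the PAD4 knockout while the second set's groups lay close together or overlapped.

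Among the injury genes, the difference was 2.87 ± 0.46 (SE), adjusted p = 0.00134 for Clu, which rose in the PAD4 knockout with levels of 417, 418, 423 FPKM (second-set wild type) against 126, 126, 139.7 FPKM (IL-33 knockout). For Krt20 it was 4.23 ± 0.92 (SE), adjusted p = 0.00794, with 349, 56.1, 227 FPKM (second-set wild type) against 0.366, 0.359, 0.239 FPKM (IL-33 knockout). For Lcn2 it was 3.22 ± 0.53 (SE), adjusted p = 0.00161, with 230.1, 291, 608 FPKM (second-set wild type) against 16.5, 24.2, 16.6 FPKM (IL-33 knockout). For Cdkn1a it was 1.80 ± 0.41 (SE), adjusted p = 0.0103, with 63.9, 27.9, 40.4 FPKM (second-set wild type) against 2.11, 2.41, 2.72 FPKM (IL-33 knockout). The last 3 were lower on average in both knockouts, and further below in the IL-33 knockout. Of these 8, only Acsl4 was below 0, at -2.21 ± 0.66 (SE), adjusted p = 0.042, with 18.5, 5.18, 30.8 FPKM (second-set wild type) against 10.4, 11.1, 12.2 FPKM (IL-33 knockout). Its groups overlapped in the second set and were apart in the first.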

How the results depend on the processing

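Of 1243 genes higher and 1230 lower, the counts were 0 and 0 with no filter on level, where 6053 of 32199 genes were at an unadjusted p under 0.05 in limma. They were 934 and 762 at a mean of at least 2 FPKM, 1909 and 1776 under quantile normalization, 1769 and 1692 under median-of-ratios scaling, 2267 and 2939 with array weights (whose estimation stopped before it converged), and 59 and 14 with the colon and lung covariate. The cause was not tested. The 2 alternatives added after seeing the data gave 1208 and 1157 with a robust prior, and 0 and 1 on each gene's own spread, where 2899 genes were at an unadjusted p under 0.05 against 4292 in the fit reported. limma's prior had 15.0 degrees of freedom there, 2.06 with no filter, and was infinite in 6 fits (TPM, replicate block, covariate, and without wild-type library 2, knockout library 1 or knockout library 2), where a gene's own spread has no weight and p-values can be too small. With 1 library left out, higher counts ran from 352 (without wild-type library 1) to 1770 (without knockout library 2), and lower counts from 515 (without wild-type library 3) to 1764 (without knockout library 2). Leaving out wild-type library 3 also moved the median of all genes to 0.11. A pseudocount of 0.1, TPM, equal sums outside the mitochondrial genome and no trend stayed within 1.5 times of both counts. The difference from the IL-33 knockout, 811 above and 804 below, became 806 and 1348 with no filter, 1684 and 1420 under quantile normalization and 1612 and 1427 under median-of-ratios scaling. With 1 library left out it ran from 522 (without IL-33 knockout library 1) to 1032 (without PAD4 knockout library 3) above, and from 533 (without IL-33 knockout library 1) to 1143 (without wild-type library 1) below.

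Replicate numbers did not pair the libraries: same-numbered residuals correlated at -0.016, -0.11 and -0.15 between the groups. With the replicate block, 951 genes were higher and 1033 lower, and the difference was 878 above and 941 below. Of 238 named genes past the threshold, 134 kept the call in all fits that left out a library.

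Among the named genes, the changes that reversed outside the colon and lung covariate fit were of genes not past the threshold. In that fit the change kept its direction for 1959 of the 2473 genes called. Slc12a3 was at -0.0790 under quantile normalization and -0.26 with array weights, and ran from -0.14 (without knockout library 2) to 0.43 (without knockout library 1). Hist1h1c was at 0.20 with array weights and ran from -0.30 to 0.30, Gpx4 from -0.46 to 0.10, Tfrc from -0.32 to 0.047, Nphs1 from -0.15 to 0.040 and Ucp1 from -0.75 (without knockout library 3) to 2.39. Ucp1 passed the threshold only in fits with an infinite prior (TPM, replicate block, and without wild-type library 2, knockout library 1 or knockout library 2). Depth is unknown, so what it limits cannot be given. The colon and lung levels move with genotype, and the fit with them as a covariate has 3 residual degrees of freedom.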
